A study of Homo sapiens with 12 samples.

Results

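The ZIC genes encode zinc-finger transcription factors. Rows of the deposited count table were taken by symbol, and ZIC1, ZIC2, ZIC4 and ZIC5 are described here, 4 genes with 1 identifier each, of 35940 symbols in all. The cells were ESI017 human embryonic stem cells with an mCitrine reporter at SOX2, grown as colonies on micropatterned coverslips, where printed adhesive areas confine each colony. The colonies were treated for 3 days, and the libraries fall into 7 groups. SOX2-negative cells came from colonies in N2B27, a serum-free basal medium, with 200 ng/ml FGF8 plus WNT3A at 100 (n = 2), 300 (n = 1) or 1000 ng/ml (n = 2). SOX2-positive cells were sorted from the same treated colonies, with the same numbers of libraries. Control colonies had N2B27 alone (n = 2), and the labels do not say that they were sorted. All 12 libraries come from 1 reporter line, so replicates are repeats of the culture and not different donors.

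ZIC proteins bind GC-rich DNA through fingers related to those of the GLI proteins, and they also act with other factors on shared targets. ZIC2 is known for its part in early neural tissue and the ventral forebrain, and its loss in humans causes holoprosencephaly. ZIC1 acts in the neural plate border and cerebellum, ZIC4 lies beside it, and ZIC5 was linked to neural crest in frog and mouse. The study's title asks how endogenous Nodal changes the reading of WNT in these colonies. Here that bears on these 4 genes as levels in each gate and at each WNT3A dose.

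The 4 genes lie at 2 loci on GRCh38 (GENCODE 29). ZIC2 (ENSG00000043355) spans chr13:99981772-99986773 on the plus strand. ZIC5 (ENSG00000139800) spans chr13:99962964-99971909 on the minus strand. Their extents are 9.86 kb apart, head to head, and share 0 exonic bases. ZIC1 (ENSG00000152977, chr3:147393422-147510293, plus strand) and ZIC4 (ENSG00000174963, chr3:147386046-147406860, minus strand) overlap and share 176 exonic bases. Without a stated strand setting, reads from those bases cannot be assigned to either. The longest coding transcripts of ZIC1 and ZIC4 do not overlap and lie 2.52 kb apart.

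The promoters of ZIC2, ZIC5 and ZIC1 are shown because ZIC2 and ZIC5 moved together in these libraries and ZIC1 was read mainly in control. Sequences are from RefSeq on GRCh38.p14, 250 bases before to 50 after the annotated start, and each of the 4 genes had an entry. For ZIC5 the entry that starts at the 5′ end of the GENCODE gene is printed. Capitals mark matches, on either strand, to 4 motifs: a TCF/LEF core (CTTTGNT), a ZIC core (CCTGCTG), a SOX core (CATTGT) and the CCAAT box (CCAAT).
ZIC2 chr13:99981534-99981833 (+): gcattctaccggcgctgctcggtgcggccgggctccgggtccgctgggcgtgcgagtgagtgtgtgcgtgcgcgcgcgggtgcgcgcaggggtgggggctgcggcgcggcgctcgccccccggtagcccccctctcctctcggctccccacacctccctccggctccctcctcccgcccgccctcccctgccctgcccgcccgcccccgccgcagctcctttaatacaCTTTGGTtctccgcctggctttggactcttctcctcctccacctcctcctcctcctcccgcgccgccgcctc
ZIC5 chr13:99971860-99972159 (-): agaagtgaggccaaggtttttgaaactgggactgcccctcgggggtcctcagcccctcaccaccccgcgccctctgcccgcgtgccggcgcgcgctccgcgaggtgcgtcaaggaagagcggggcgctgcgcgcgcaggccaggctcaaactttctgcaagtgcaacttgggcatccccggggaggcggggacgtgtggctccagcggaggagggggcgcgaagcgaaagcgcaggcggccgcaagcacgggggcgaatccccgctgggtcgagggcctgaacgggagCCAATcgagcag
ZIC1 chr3:147409115-147409414 (+): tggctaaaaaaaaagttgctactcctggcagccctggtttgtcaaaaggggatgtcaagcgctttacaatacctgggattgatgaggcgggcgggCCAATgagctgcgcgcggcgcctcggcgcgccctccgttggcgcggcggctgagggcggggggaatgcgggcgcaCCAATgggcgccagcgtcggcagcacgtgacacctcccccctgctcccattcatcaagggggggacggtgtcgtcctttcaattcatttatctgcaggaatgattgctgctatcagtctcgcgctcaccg

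The ZIC2 window held 1 TCF/LEF core, which 15.4% of the 34796 promoters searched also hold. The ZIC5 window held 1 CCAAT box and the ZIC1 window 2, a motif in 34.6% of promoters. The ZIC5 count depends on the entry: chr13:99971718-99972017, not printed, held 4 and chr13:99969123-99969422 held 1. The ZIC core (10.5% of promoters) and the SOX core (10.8%) had no match in these 3 windows, which says only that those letters are not there. GC content was 75.0% for ZIC2, 70.3% for ZIC5 and 61.3% for ZIC1, beside a median of 58.7% over all promoters. The motifs were picked with the expression values known, and a match is not evidence of binding.

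The libraries held 16474799 to 28078923 estimated counts each. Levels are CPM, that is counts scaled to a common library size, with TMM adjustment. SOX2 itself was 1.85 to 5.98 CPM in SOX2-negative libraries, 417.8 to 467.1 CPM in SOX2-positive libraries and 651.5 to 676.1 CPM in control. The SOX2-negative libraries at 100 ng/ml stood furthest apart as replicates, with a chi-square over genes, divided by its degrees of freedom, of 134.2, against 21.7 to 49.8 in the other groups of 2. Replicate 2 of that group also had the lowest TMM factor, 0.899. Definitive endoderm markers (SOX17, FOXA2, GATA4, GATA6, CXCR4 and CER1) summed to 809.7 to 1458 CPM in SOX2-negative, 7.998 to 30.4 CPM in SOX2-positive and 3.91 to 7.87 CPM in control libraries. All 6 were higher in SOX2-negative than in SOX2-positive cells, and none was at 0 in every library of either gate. Pluripotency markers (POU5F1, NANOG, PRDM14 and DPPA4) summed to 391.2 to 830.4 CPM in SOX2-negative, 1912 to 2855 CPM in SOX2-positive and 879.1 to 1013 CPM in control libraries. Lateral and cardiac mesoderm markers (HAND1, TBX3, GATA5, PDGFRA, MESP1 and KDR) summed to 201.3 to 761.5 CPM in SOX2-negative, 101.4 to 200.5 CPM in SOX2-positive and 31.2 to 35.1 CPM in control libraries. Of these, 5 were higher and KDR was lower in SOX2-negative than in SOX2-positive cells. Among the other marker lists, 1 of 3 paraxial mesoderm genes tested was higher and 1 of 3 neural crest genes was lower. Of 5 surface ectoderm and amnion genes tested, 2 were higher and 3 lower. Of all genes tested, 12.9% were called higher and 11.1% lower in SOX2-negative than in SOX2-positive cells. In bulk RNA, fewer cells of a type and less RNA per cell cannot be told apart, and the part of these cell types in the values of these 4 genes was not tested.

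ZIC2 and ZIC5 were lower in SOX2-negative than in SOX2-positive cells. ZIC2 had 91.7 and 55.5 CPM at 100 ng/ml, 119.5 CPM at 300 ng/ml, and 169.2 and 56.3 CPM at 1000 ng/ml in SOX2-negative libraries. In SOX2-positive libraries ZIC2 had 300.8 and 308.3, then 277.6, then 294.1 and 301.9 CPM at the same doses. Every SOX2-negative library was below every SOX2-positive library, as for 2049 of all 17047 genes tested (12%), and the SD of the SOX2-negative libraries was the larger. Over 100 and 1000 ng/ml, ZIC2 averaged 93.2 ± 53.4 CPM in SOX2-negative and 301.3 ± 5.81 CPM in SOX2-positive cells (SD, n = 4 each). The log2 fold change was -1.73 ± 0.30 (SE), with an adjusted p of 0.0019 by the quasi-likelihood test of edgeR and Benjamini-Hochberg adjustment over all genes.

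ZIC5, the head-to-head partner of ZIC2, had 23.8 and 13.6 CPM at 100, 27.4 CPM at 300, and 41.1 and 18.3 CPM at 1000 ng/ml in SOX2-negative libraries. The SOX2-positive libraries had 98.2 and 113.3, then 88.0, then 85.1 and 92.1 CPM. The gates did not overlap for ZIC5, as for the same 12% of all genes. Mean ZIC5 was 24.2 ± 11.99 CPM in SOX2-negative and 97.2 ± 12.02 CPM in SOX2-positive cells (SD, n = 4 each), a log2 fold change of -2.04 ± 0.26 (SE; adjusted p = 0.00025, edgeR).

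ZIC2 and ZIC5 were 2 of the 4 genes described here called lower between the gates, as were 11.1% of all 17047 genes tested. ZIC1 was not called and ZIC4 was below the filter on low counts.

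**Figure D1:**
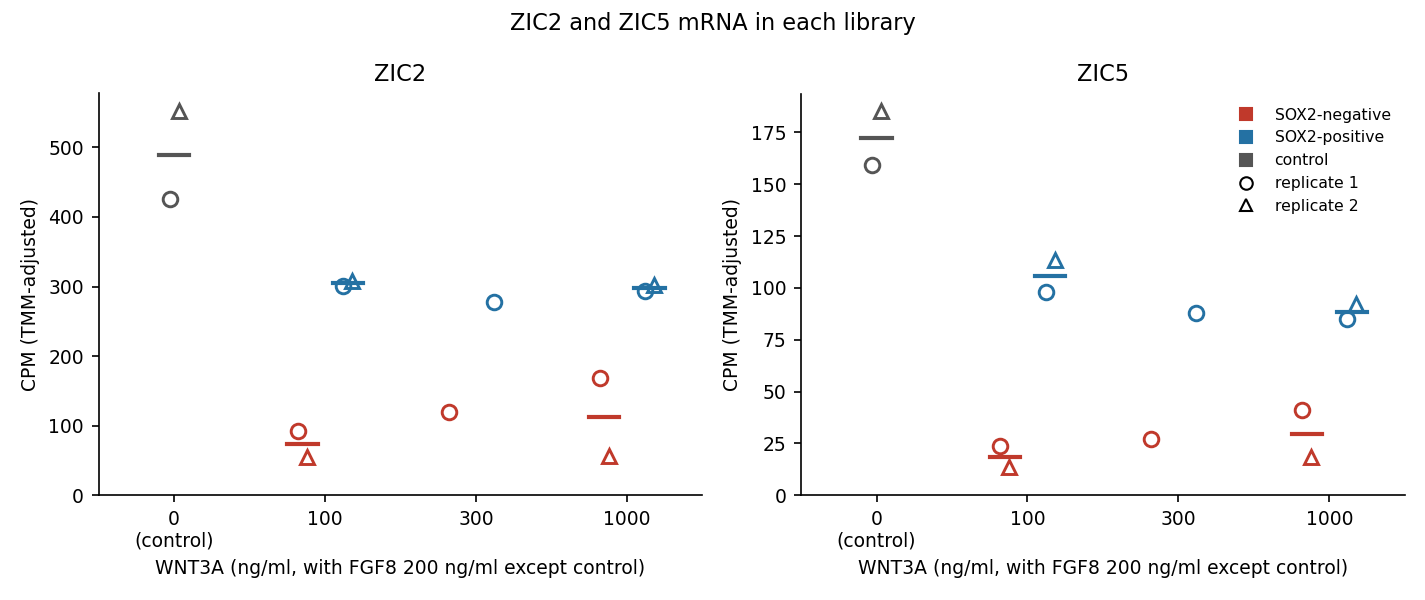
TMM-adjusted CPM (y axis, from 0, own scale per gene) of ZIC2 and ZIC5 in each library against WNT3A dose (x axis, equally spaced doses). Circles are replicate 1, triangles replicate 2 and bars the mean of 2 libraries; SOX2-negative libraries lie lowest and control highest for both genes.

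Each SOX2-negative library has a SOX2-positive partner with the same dose and replicate number. ZIC2 in SOX2-negative cells was 30.5% and 18.0% of its SOX2-positive partner at 100, 43.1% at 300, and 57.5% and 18.7% at 1000 ng/ml. For ZIC5 these were 24.2% and 11.99%, then 31.1%, then 48.3% and 19.9%. All 5 pairs showed each gene's direction. SOX2, which set the sort, was at 0.441% to 1.28%, below the shares of ZIC2 and ZIC5 in each of the 5 pairs. Replicate 1 at 1000 ng/ml had the highest share for both ZIC2 and ZIC5, and that library was also the highest SOX2-negative one in CPM for both genes.

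**Figure D2:**
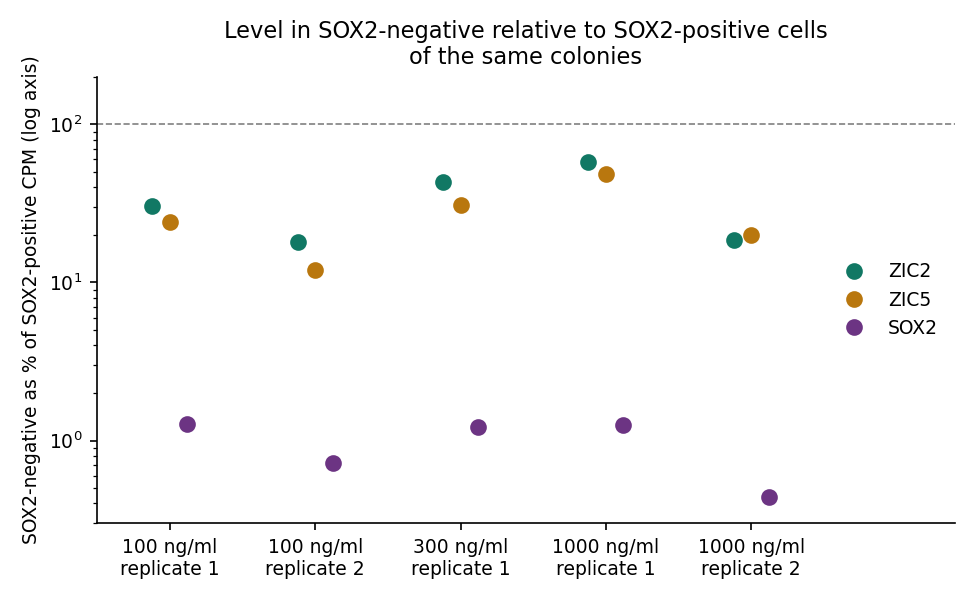
Level in SOX2-negative cells as a percent of the SOX2-positive library with the same dose and replicate number (y axis, log scale), for ZIC2, ZIC5 and SOX2 in 5 pairs (x axis). The dashed line is 100%; ZIC2 and ZIC5 are between 11.99% and 57.5%, and SOX2 is at or below 1.28%.

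Against control, ZIC2 and ZIC5 were both called lower in SOX2-negative cells. ZIC2 was 425.2 and 552.6 CPM in control, above every treated library (so placed for 9.86% of all genes), and its log2 fold change in SOX2-negative cells against control was -2.42 ± 0.35 (SE; adjusted p = 0.0006, edgeR). ZIC5 was 159.5 and 185.2 CPM in control, again above every treated library, and fell by 2.88 ± 0.30 on the log2 scale (SE; adjusted p = 7.2e-05, edgeR). Of all genes, 10.1% were called lower in this comparison. This comparison and the one of SOX2-positive cells with control use the same 2 control libraries.

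In SOX2-positive cells neither ZIC2 nor ZIC5 was called against control, where 7.81% of all genes were. ZIC2 had a log2 fold change of -0.70 ± 0.35 (SE; adjusted p = 0.29, edgeR) and ZIC5 one of -0.83 ± 0.30 (adjusted p = 0.13, edgeR). The 5 SOX2-positive libraries lay below the 2 control libraries for both genes, as they did for 21.3% of all genes. Both genes passed when only the compared groups were fitted, with adjusted p of 0.0051 for ZIC2 and 0.0018 for ZIC5 (edgeR). They also passed when no filter was used, with 0.013 and 0.0028 (edgeR). More genes were called in general there: 3243 with only the compared groups and 2158 with no filter, against 1332. Of 18 alternative fits, 16 left ZIC2 uncalled and 14 left ZIC5 uncalled.

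**Figure D3:**
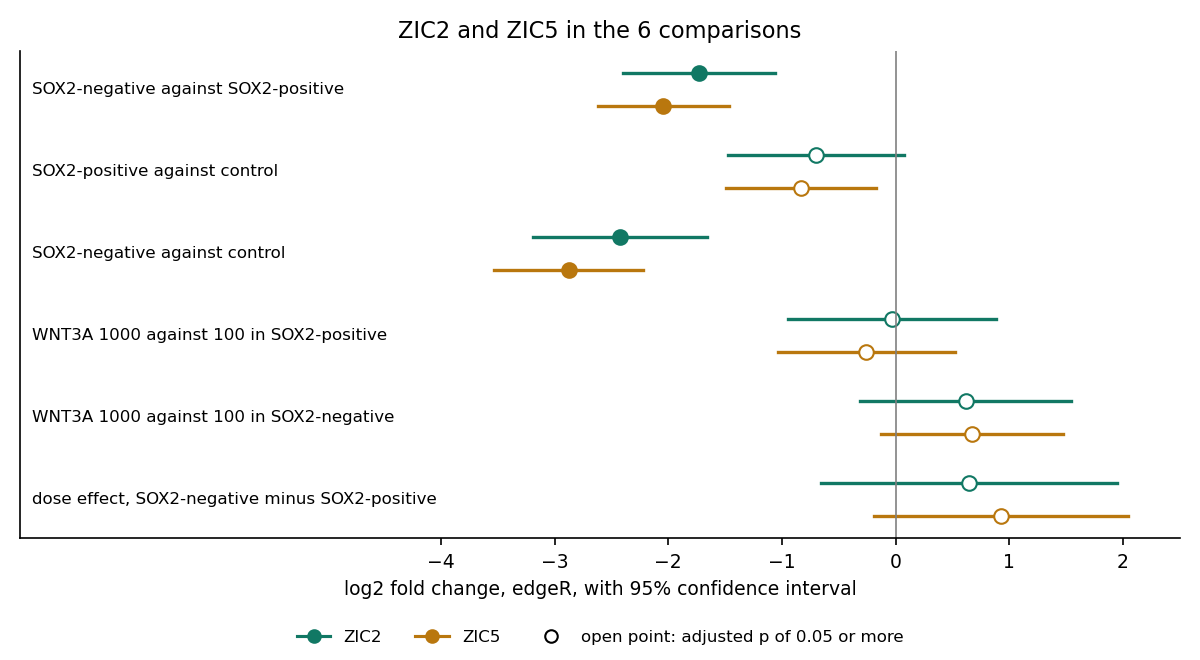
Log2 fold changes of ZIC2 and ZIC5 with 95% confidence intervals (x axis) in 6 comparisons (rows), from 1 edgeR model of all 12 libraries. Filled points passed an adjusted p of 0.05: both genes in SOX2-negative cells against SOX2-positive cells and against control, on the negative side of 0.

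WNT3A dose, compared as 1000 against 100 ng/ml, gave no call for ZIC1, ZIC2 or ZIC5 in either gate. In SOX2-positive cells the log2 fold change was -0.03 ± 0.42 for ZIC2 and -0.26 ± 0.35 for ZIC5 (SE; adjusted p = 1.0 each, edgeR). In SOX2-negative cells the values were 0.62 ± 0.42 for ZIC2 (adjusted p = 0.40) and 0.67 ± 0.36 for ZIC5 (adjusted p = 0.31, edgeR). The difference of the dose effect between the gates was 0.65 ± 0.59 for ZIC2 (adjusted p = 0.63) and 0.93 ± 0.51 for ZIC5 (adjusted p = 0.53, edgeR). The background was also 0.0% in all 3 dose comparisons. Over all genes, an unadjusted p under 0.05 was reached by 293 genes in SOX2-positive cells, 3107 in SOX2-negative cells and 1349 for the difference, and DESeq2 called 5, 431 and 19.

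The dose values in SOX2-negative cells rested on single libraries. Without replicate 1 at 1000 ng/ml the log2 fold changes were -0.38 for ZIC2 and -0.02 for ZIC5. Without replicate 1 at 100 ng/ml that of ZIC5 was 1.14, from a fit that leaves 1 library in that group, so no p-value is given. The intervals with all libraries, -0.31 to 1.54 for ZIC2 and -0.13 to 1.47 for ZIC5, leave room for changes in both directions.

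Levels of different genes were compared per kb of the longest coding transcript. In SOX2-negative libraries ZIC2 was at 18.6 to 56.7 and ZIC5 at 2.93 to 8.85 CPM per kb. In SOX2-positive libraries ZIC2 was at 93.0 to 103.4 and ZIC5 at 18.3 to 24.4 CPM per kb. In control, ZIC2 was at 142.5 and 185.3 and ZIC5 at 34.4 and 39.9 CPM per kb. ZIC2 stood above ZIC5 in all 12 libraries.

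ZIC5 and ZIC2 followed each other closely, with a Pearson correlation of log2 CPM of 0.989 over the 12 libraries, given as a description because the libraries share 7 groups. The ratio of ZIC5 to ZIC2 per kb was 0.167 and 0.158 at 100, 0.147 at 300, and 0.156 and 0.209 at 1000 ng/ml in SOX2-negative libraries. It was 0.210 and 0.236, then 0.204, then 0.186 and 0.196 in SOX2-positive libraries, and 0.241 and 0.215 in control. The gates overlapped through replicate 2 at 1000 ng/ml. Mean ratios at 100 and 1000 ng/ml were 0.172 ± 0.025 in SOX2-negative and 0.207 ± 0.022 in SOX2-positive cells (SD, n = 4 each; exact two-sided permutation p = 0.086, the smallest possible being 0.029). With the 300 ng/ml libraries they were 0.167 ± 0.025 in SOX2-negative and 0.206 ± 0.019 in SOX2-positive cells (SD, n = 5 each; exact permutation p = 0.032). Both permutations exchanged libraries freely between the gates and kept neither the pairs nor the doses, so their p-values do not allow for the pairing. This ratio was examined after the counts had been seen, and the call depends on the 300 ng/ml libraries and on leaving the pairs aside.

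**Figure D4:**
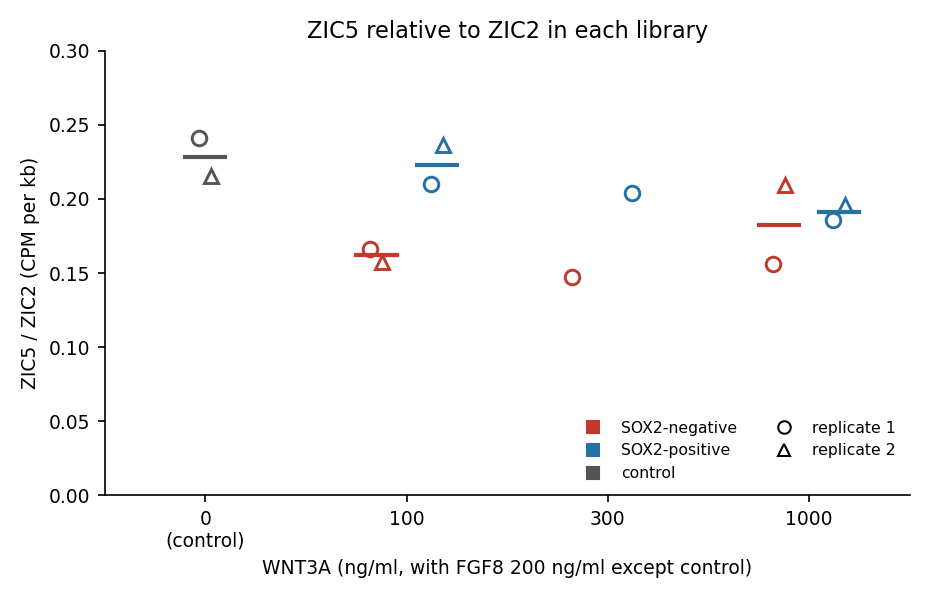
Ratio of ZIC5 to ZIC2 level, each in CPM per kb (y axis, from 0), in each library against WNT3A dose (x axis, equally spaced doses). Circles are replicate 1, triangles replicate 2 and bars the mean of 2 libraries; SOX2-negative libraries span 0.147 to 0.209 and SOX2-positive libraries 0.186 to 0.236.

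ZIC1 was barely detected outside control, and ZIC4 was barely detected in any group, control included. ZIC1 had 3 and 0 counts at 100, 1 at 300, and 0 and 0 at 1000 ng/ml in SOX2-negative libraries. SOX2-positive libraries had 4 and 0, then 4, then 6 and 3 counts, and control libraries had 47 and 61. No treated library reached the control counts. In CPM too, every treated library was below both control libraries, as for 9.86% of all 17047 genes tested. ZIC1 passed the filter through the control libraries alone, so a test of it against control is not given. For the same reason its place below control is no support for a difference. The level in control, and not a difference from control, let the gene be tested.

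Over 100 and 1000 ng/ml, the 3 ZIC1 counts in SOX2-negative cells put its pooled level at 1.57% of control (95% exact interval 0.319% to 4.71%, counting error only). At 1000 ng/ml the 2 SOX2-negative libraries had 0 counts, and the exact interval of that share reached up to 3.79% of control. The 13 counts in SOX2-positive cells gave 6.78% of control (95% exact interval 3.496% to 12.1%). These shares and intervals describe pooled counts, leave out the spread between libraries and are no test against control. Between the gates ZIC1 was not called (adjusted p = 0.21, edgeR).

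ZIC4 had 2 counts in SOX2-negative cells (replicate 2 at 1000 ng/ml) and 6 in SOX2-positive cells (4 in replicate 1 at 100 ng/ml and 2 at 300 ng/ml), while the control libraries had 7 and 6. It stayed below the filter. Tested without the filter, its adjusted p was 0.27 for SOX2-negative and 0.50 for SOX2-positive cells against control (edgeR). Over 100 and 1000 ng/ml, its 2 counts in SOX2-negative cells were 8.69% of control (95% exact interval 0.952% to 38.4%). Its 4 counts in SOX2-positive cells were 17.3% of control (95% exact interval 4.12% to 56.1%). These intervals cover counting error and not the spread between replicates, and the bases it shares with ZIC1 add to the uncertainty of both.

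**Figure D5:**
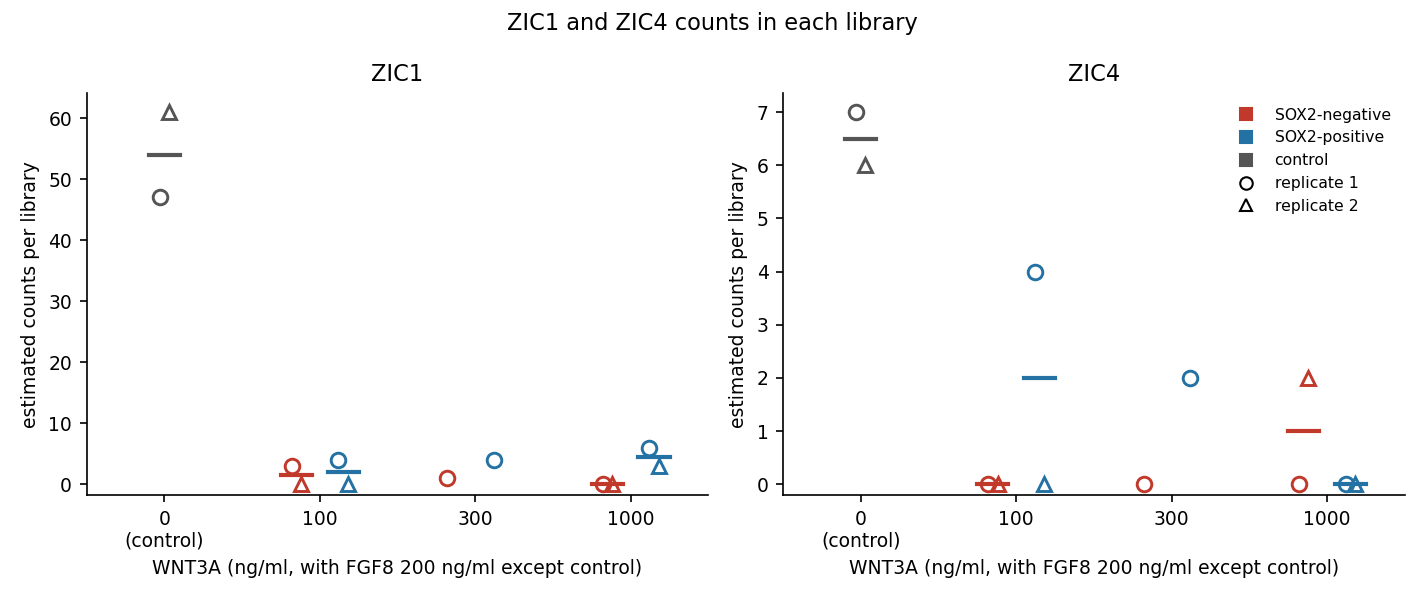
Estimated counts (y axis, own scale per gene) of ZIC1 and ZIC4 in each library against WNT3A dose (x axis, equally spaced doses). Circles are replicate 1, triangles replicate 2 and bars the mean of 2 libraries; control reaches 61 counts for ZIC1 and 7 for ZIC4, and treated libraries at most 6 and 4.

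Lists of related genes were read beside the members. Among the 6 GLI and GLIS genes, whose fingers resemble those of ZIC proteins, 1 was higher and 3 lower in SOX2-negative than in SOX2-positive cells, where 12.9% of all genes were called higher and 11.1% lower. GLI2, a hedgehog effector, averaged 17.7 ± 10.5 CPM in SOX2-negative and 71.2 ± 9.82 CPM in SOX2-positive cells (SD, n = 4 each; log2 fold change -2.12 ± 0.28 SE; adjusted p = 0.00028, edgeR). GLI3, mainly a repressor in that pathway, changed by -2.34 ± 0.22 and GLIS1 by 2.68 ± 0.43 on the log2 scale (adjusted p = 3.3e-05 and 0.0012, edgeR). The list's median log2 fold change was -0.46, against 0.01 over all genes.

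Of 11 early neural plate genes tested, 0 were higher and 7 lower in SOX2-negative than in SOX2-positive cells (median log2 fold change -3.33), against 12.9% higher and 11.1% lower over all genes. Against control, 1 was higher and 9 lower in SOX2-negative cells, where 12.4% of all genes were higher and 10.1% lower. In SOX2-positive cells 0 were higher and 6 lower than in control, where 4.65% of all genes were higher and 3.17% lower. LHX5, a forebrain LIM-homeobox factor, averaged 0.480 ± 0.543 CPM in SOX2-negative and 24.5 ± 22.1 CPM in SOX2-positive cells (SD, n = 4 each), and 412.0 ± 79.4 CPM in control (n = 2). SIX3, a forebrain homeobox gene, averaged 4.53 ± 3.85 CPM in SOX2-positive cells and 269.7 ± 29.4 CPM in control (adjusted p = 0.00089, edgeR). Sorting and treatment cannot be told apart in comparisons with control, if control colonies were not sorted.

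Of 12 axial mesoderm and node genes, 5 were higher and 0 lower in SOX2-negative than in SOX2-positive cells (median log2 fold change 1.69), beside 12.9% and 11.1% of all genes. FOXA2 averaged 195.9 ± 62.6 CPM in SOX2-negative and 4.63 ± 2.19 CPM in SOX2-positive cells (SD, n = 4 each), and it is also an endoderm marker. FOXJ1, a factor for motile cilia, averaged 28.9 ± 25.5 CPM in SOX2-negative and 1.46 ± 0.98 CPM in SOX2-positive cells. The 13 neural plate border and neural crest genes were divided, with 6 higher and 3 lower, beside the same shares of all genes. FOXD3, a crest and pluripotency factor, averaged 0.269 ± 0.141 CPM in SOX2-negative and 35.0 ± 5.62 CPM in SOX2-positive cells, and MSX1, a border homeobox gene, averaged 83.9 ± 31.4 CPM in SOX2-negative and 2.19 ± 1.02 CPM in SOX2-positive cells (SD, n = 4 each).

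Genes with the most similar pattern were taken by Pearson correlation of log2 CPM over the 12 libraries, among genes with a mean of at least 5 CPM, as a description with no test. For ZIC2 these were MGAT5B (r = 0.977), KCNMA1 (0.972) and PPRC1 (0.972). For ZIC5 they were FHOD3 (r = 0.987), MAP2 (0.984) and GLI2 (0.980). For ZIC1, whose values rest on 2 control libraries, they were CDC6 (r = 0.9498), BASP1 (0.944) and TP53I3 (0.943).

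The nearest gene in the table beside the chromosome 13 pair with a measured level was CLYBL, 65.8 kb from ZIC5, which encodes a mitochondrial lyase. It had 4.41 to 5.92 CPM in SOX2-negative libraries, 10.4 to 14.3 CPM in SOX2-positive libraries and 5.28 to 7.43 CPM in control. The SOX2-positive libraries were the highest for CLYBL, whereas control was the highest for ZIC2 and ZIC5. The other 3 nearest neighbours of the 2 loci are pseudogenes with 0 counts over all libraries.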

How the data were processed

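Poly-A RNA of 12 libraries was measured by paired-end sequencing, per the labels' protocols. The authors deposited estimated counts per gene; Salmon and GRCh38 are named in the submitters' processing notes, with no version, and strand is not given in the sources used here. Rows sharing a symbol were summed and rounded. Totals were 16474799 to 28078923. edgeR 4.0.16 (R 4.3.3) was used with TMM, filterByExpr (minimum count 10, total 15, which 1 library can satisfy because some groups have 1), 7 group means and the two-sided quasi-likelihood test, with 5 residual and 5.61 prior degrees of freedom. Benjamini-Hochberg adjustment covered 17047 genes, with a threshold of 0.05. The code was tested on simulated data. Alternatives included DESeq2 1.42.0 and a replicate block. The pairing comes from the protocol, which describes a second biological repeat. Deviations of same-numbered libraries correlated at -0.06 to 0.22 over 10 pairs of groups, 5 of them over 0.1. P-values measure the spread between repeats of 1 line. Members and lists were chosen with earlier results of these data known. Some genes that the rule and the lists took are not reported here, so the 4 genes do not stand for the whole family. The named genes are these 4, SOX2, neighbours, the 3 most similar genes per tested member and called list members. The exact intervals of ZIC1 and ZIC4 as shares of control cover counting error only. Intervals of log2 fold changes come from the edgeR fit and include the spread between libraries.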

Additional observations from a re-analysis of the deposited data

How the results depend on the processing

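ZIC2 and ZIC5 were refitted in all 6 comparisons and ZIC1 in those without a dose term, since its dose counts are at or near the floor. ZIC4 was left out because it fails the filter. Of 263 alternative values, 247 kept their direction and their side of the threshold, 13 passed it newly, 3 changed sign and 0 lost a call. The total includes 18 values of ZIC1 in SOX2-negative and 18 in SOX2-positive cells against control, with 18 and 12 unchanged. Control alone carried ZIC1 past the filter, so those values do not show how stable a result is. The calls of ZIC2 and ZIC5 in SOX2-negative cells, against SOX2-positive cells and control, held under every alternative run.

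For SOX2-positive against control, some alternatives passed the threshold. With no filter the log2 fold changes were -0.70 for ZIC2, -0.84 for ZIC5 and -3.88 for ZIC1, whose values against control are not read as results because control alone carried it past the filter. With only the compared groups they were -0.70, -0.83 and -3.90. ZIC1 gave -3.92 with DESeq2 and -4.29 with the replicate block, which changed no other member's call. With 1 library left out, ZIC5 ranged from -0.94 to -0.72 and ZIC1 from -5.93 to -3.37. Leaving out either SOX2-negative library at 100 ng/ml passed the threshold for both genes, but left 1 library in that group.

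For dose in SOX2-negative cells, values with 1 library left out ranged from -0.38 to 1.20 for ZIC2 and -0.017 to 1.14 for ZIC5. The difference of the dose effect ranged from -0.34 to 1.24 for ZIC2. The cause was not tested. With the 300 ng/ml libraries the log2 ratio of ZIC5 to ZIC2 differed by -0.31 between gates instead of -0.27.

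Counts of all genes called depended strongly on single libraries. Leaving out 1 library gave 2638 to 6835 calls between gates, 250 to 2439 for SOX2-positive against control and 1750 to 6111 for SOX2-negative against control. It gave 0 to 5739 for dose in SOX2-negative cells, the highest without replicate 1 at 100 ng/ml, and 0 to 3795 for the difference of the dose effect. SOX2-positive against control had 2158 calls with no filter, 3243 with only the compared groups and 2075 with DESeq2, against 1332. For dose in SOX2-positive cells, no filter gave 107, identifiers kept apart 1 and DESeq2 5, against 0. In SOX2-negative cells, no filter gave 1551, the replicate block 1, only the compared groups 1 and DESeq2 431, against 0. For the difference, no filter gave 308, identifiers apart 1 and DESeq2 19, against 0. With 5 residual degrees of freedom, changes near the intervals' width cannot be resolved.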
